A study of Mus musculus with 4 samples.

Results

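Hoxa2, Hoxa3, Hoxa4, Hoxa5, Hoxa7, Hoxc4, Hoxd1, Hoxd3 and Hoxd4 are genes of the Hoxa, Hoxc and Hoxd clusters, and are 9 of the 15803 genes listed in an RNA-seq comparison of Hoxb1 mutant and wild-type mouse embryos. They were taken by symbol, and all 9 were found in the list. RNA came from the microdissected second heart field (SHF) region at E8.5, the cardiac progenitor territory in splanchnic mesoderm behind the heart tube, together with the pharyngeal tissue around it. There were 2 libraries of Hoxb1Mu embryos, described in the methods of the study as Hoxb1-/-, and 2 libraries of WT embryos. No treatment, strain, further allele, sex or litter is labelled for either group. The question was which Hox genes of the other clusters, sorted by paralogue group, differed in RNA level when Hoxb1 was mutated.

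Hox genes encode homeodomain transcription factors and lie in 4 clusters that arose by duplication, so that genes at the same place in different clusters (a paralogue group) have similar proteins. Within a cluster they are switched on in order, from the 3′ end toward the 5′ end, earlier and further forward for low group numbers than for high ones. In the E8.5 embryo the low-numbered groups mark the segments of the hindbrain, the neural crest that leaves it, the pharyngeal arches and the posterior SHF. Retinoic acid switches many of them on, HOX proteins and their cofactors PBX and MEIS keep them on in a network of cross-regulation, and Polycomb proteins keep the silent part of each cluster closed.

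The promoters of 4 of the genes are shown, so that genes with unlike results can be set side by side. DESeq2 called Hoxa2 and Hoxd3 higher in Hoxb1Mu, Hoxa3 had the smallest difference among the tested genes, and Hoxd1 was the one with a mean lower in Hoxb1Mu. Each window holds 250 bases before and 50 after the gene's start in RefSeq (GRCm38.p6), and is written 5′ to 3′ on the strand of the gene. RefSeq windows were matched for 8 of the 9 genes, the exception being Hoxa4. Capitals mark matches, on either strand, to the HOX–PBX motif TGATNNAT, the MEIS motif TGACAG or the retinoic acid receptor half-site AGGTCA. The motifs share no position in these windows.
Hoxa2 (chr6:52164782-52165081, minus strand): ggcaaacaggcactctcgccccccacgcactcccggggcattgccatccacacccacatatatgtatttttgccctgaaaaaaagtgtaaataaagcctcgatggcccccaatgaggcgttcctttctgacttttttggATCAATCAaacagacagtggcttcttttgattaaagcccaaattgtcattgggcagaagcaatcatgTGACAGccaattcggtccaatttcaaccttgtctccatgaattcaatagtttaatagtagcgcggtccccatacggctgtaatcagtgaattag
Hoxd3 (chr2:74711743-74712042, plus strand): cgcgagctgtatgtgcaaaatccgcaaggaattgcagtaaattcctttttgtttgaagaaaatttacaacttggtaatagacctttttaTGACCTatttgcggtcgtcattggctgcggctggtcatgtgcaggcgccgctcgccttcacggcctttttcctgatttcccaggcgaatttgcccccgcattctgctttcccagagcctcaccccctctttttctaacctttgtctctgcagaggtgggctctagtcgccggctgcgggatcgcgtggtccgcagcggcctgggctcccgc
Hoxa3 (chr6:52213018-52213317, minus strand): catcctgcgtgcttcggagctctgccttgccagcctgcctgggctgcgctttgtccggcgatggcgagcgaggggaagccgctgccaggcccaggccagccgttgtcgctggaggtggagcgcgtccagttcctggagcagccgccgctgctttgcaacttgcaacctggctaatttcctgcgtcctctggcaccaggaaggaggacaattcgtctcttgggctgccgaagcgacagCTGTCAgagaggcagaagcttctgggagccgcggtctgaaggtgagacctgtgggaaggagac
Hoxd1 (chr2:74762730-74763029, plus strand): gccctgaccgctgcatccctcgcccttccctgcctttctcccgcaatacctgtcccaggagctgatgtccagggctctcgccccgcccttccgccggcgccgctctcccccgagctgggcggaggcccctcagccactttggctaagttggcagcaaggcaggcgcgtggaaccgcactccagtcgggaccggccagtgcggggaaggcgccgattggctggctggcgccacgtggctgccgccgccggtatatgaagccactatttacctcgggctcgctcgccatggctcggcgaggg

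TGATNNAT stood in 1 of the 8 windows, that of Hoxa2, where the match began 111 bases before the start, and in 8.85% of the 32851 RefSeq windows of this length. TGACAG stood in the windows of Hoxa2 (44 bases before the start) and Hoxa3 (13 bases before) and in 19.2% of all windows. The half-site AGGTCA stood in 4 of the 8 windows, those of Hoxa5, Hoxc4, Hoxd3 and Hoxd4, and in 16.3% of all windows. It began 161 bases before the start of Hoxd3 and 145 before that of Hoxd4. A direct repeat of AGGTCA with a gap of 2 or 5 bases, the arrangement that retinoic acid receptors prefer, stood in 0.0183% of all windows and in 0 of the 8. A match is a match of letters and was not measured as a binding site.

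Reads in the listed genes came to 31711309 and 34383760 in the Hoxb1Mu libraries and 31331595 and 34244827 in the WT libraries. Values are normalised read counts (reads divided by a size factor of each library), on a scale where 1 read was worth between 0.943 and 1.06, so a value is close to its number of reads. Hoxb1 itself had 137 and 167 normalised counts in Hoxb1Mu and 682 and 617 in WT, a log2 fold change of -2.09 ± 0.14 (SE, limma adjusted p = 0.0806, DESeq2 adjusted p = 2.73e-21), so both Hoxb1Mu libraries matched their label. Where in the gene the remaining Hoxb1 reads lay is not known. In the methods, the RNA of a replicate is a pool of embryos, but RNA of 4 Y-linked genes (Ddx3y, Uty, Kdm5d and Eif2s3y) summed to 7151 and 1.89 in Hoxb1Mu and to 4.25 and 13.5 in WT, and Xist had 111 and 5935 in Hoxb1Mu and 26992 and 32024 in WT. The Hoxb1Mu libraries thus stood apart from each other, and each result below is read with the value in each library. Nothing in the labels says whether libraries of a group came from separate litters, so p-values measure the spread between these libraries, which may be technical.

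Of the 9 genes, 8 passed the minimum mean of 10 normalised counts and were tested with limma. Among these 8, 7 had both Hoxb1Mu libraries above both WT libraries (Hoxa2, Hoxa3, Hoxa4, Hoxa5, Hoxc4, Hoxd3 and Hoxd4), with log2 fold changes between 0.20 and 1.48. Such separation occurred in 26.4% of the 15760 tested genes. The remaining tested gene, Hoxd1, overlapped between the groups. The median log2 fold change of the 8 genes was 0.79, and that of all tested genes was 0.00061, where 50.1% of genes lay above 0. By cluster the median was 0.88 for the 4 Hoxa genes, 0.74 for Hoxc4 alone and 0.83 for the 3 Hoxd genes. Summed over the 9 genes, there were 1199 and 1208 normalised counts in Hoxb1Mu and 801 and 820 in WT. In bulk tissue, more RNA per cell and more cells of a type cannot be told apart.

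None of these differences passed a Benjamini-Hochberg adjusted p of 0.05 in limma, which called 0 of 15760 genes (0.0%, smallest adjusted p 0.0806). At an unadjusted limma p under 0.05, 5 of the 8 genes were higher in Hoxb1Mu and 0 lower, against 8.8% of all tested genes higher and 9.82% lower. edgeR on the recovered reads called 0 of the 8 and 0.0% of 15732 genes (smallest adjusted p 0.0594), and again 5 of the 8 had an unadjusted p under 0.05. DESeq2 on the same reads gave an adjusted p for 4 of the 8 genes, and its filter on low counts left the other 4 without one. It called Hoxa2 and Hoxd3 higher and 0 lower, against 2.01% of 11788 genes higher and 2.71% lower. Those 2 calls rested on all 4 libraries. In DESeq2 fits without 1 library, neither gene was called in any of the 3 fits that gave it an adjusted p. All 9 genes had means under 300 normalised counts, as did 36.7% of the tested genes, and 5 had means under 100.

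**Figure D1:**
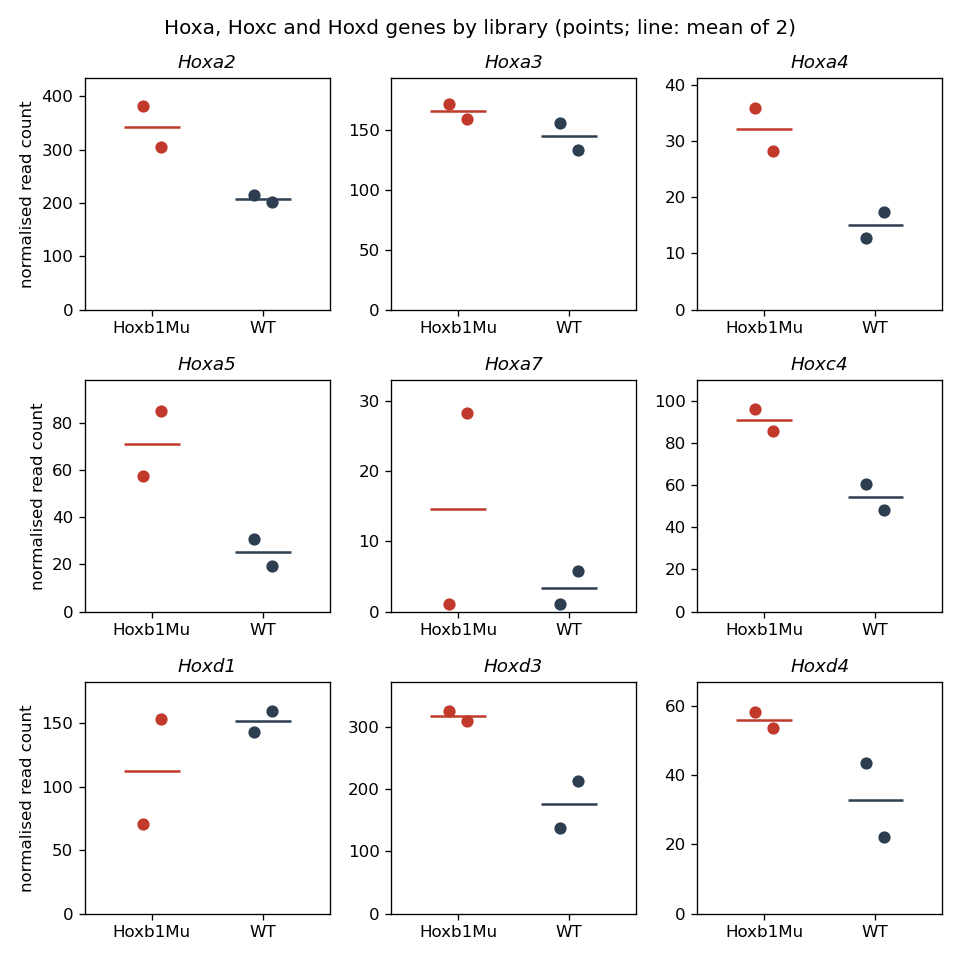
Normalised read count (y axis, linear, from 0) of each of the 9 genes in the 2 Hoxb1Mu libraries (red) and the 2 WT libraries (dark blue), with library 1 left of library 2 and a line at the mean of each group. Both red points lie above both dark points for Hoxa2, Hoxa3, Hoxa4, Hoxa5, Hoxc4, Hoxd3 and Hoxd4, while Hoxd1 is low in Hoxb1Mu 1 (70.8) and Hoxa7 is high in Hoxb1Mu 2 (28.3).

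In paralogue group 2, Hoxa2 patterns the hindbrain and the skeleton formed by neural crest of the second pharyngeal arch. Hoxa2 (chr6:52162417-52164831, mm10, minus strand) had 381 and 305 normalised counts in Hoxb1Mu, against 215 and 202 in WT. The groups did not overlap, and the Hoxb1Mu libraries lay further apart than the WT libraries. The means were 343 ± 54.3 in Hoxb1Mu and 208 ± 8.92 in WT (SD, n = 2 each), 1.65-fold higher in Hoxb1Mu. In limma this was 0.71 ± 0.15 on the log2 scale (95% interval 0.34 to 1.07, adjusted p = 0.155). DESeq2 gave 0.72 ± 0.23 with an adjusted p of 0.0452, and over all alternatives the adjusted p of Hoxa2 lay between 0.0452 and 0.684. Its Hoxb paralogue Hoxb2 had 226 and 210 in Hoxb1Mu and 192 and 214 in WT, with a log2 fold change of 0.10 ± 0.14. The groups overlapped for Hoxb2.

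In paralogue group 3, which patterns the third pharyngeal arch and the neck, Hoxd3 and Hoxa3 had unlike differences. Hoxd3 (chr2:74711927-74748442, plus strand), needed for the uppermost cervical vertebrae, had 325 and 309 normalised counts in Hoxb1Mu and 138 and 213 in WT. Here the WT libraries were the ones that lay apart. The means were 317 ± 11.1 in Hoxb1Mu and 175 ± 52.6 in WT, 1.81-fold higher in Hoxb1Mu. The log2 fold change was 0.88 ± 0.22 (95% interval 0.36 to 1.41, limma adjusted p = 0.160), and it was 0.57 without WT 1 and 1.19 without WT 2. DESeq2 gave 0.85 ± 0.28 with an adjusted p of 0.0474, and over all alternatives the adjusted p of Hoxd3 lay between 0.0474 and 0.927. Hoxa3 (chr6:52169062-52213336, minus strand), needed for the thymus and parathyroid glands, had 172 and 159 in Hoxb1Mu against 156 and 134 in WT. The groups did not overlap, but the lower Hoxb1Mu library lay just above the higher WT library. The log2 fold change was 0.20 ± 0.16 (95% interval -0.19 to 0.59, adjusted p = 0.541), and it was 0.31 without WT 1 and 0.085 without WT 2. Hoxb3, the Hoxb gene of the group, had 173 and 181 in Hoxb1Mu and 125 and 117 in WT, without overlap (log2 fold change 0.54 ± 0.15, limma adjusted p = 0.175, DESeq2 adjusted p = 0.321).

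In paralogue group 4 all 3 genes outside the Hoxb cluster had both Hoxb1Mu libraries above both WT libraries. These genes pattern cervical and upper thoracic vertebrae and the hind part of the hindbrain. Hoxa4 (chr6:52189671-52191753, minus strand) had 35.9 and 28.3 normalised counts in Hoxb1Mu and 12.7 and 17.3 in WT, which is 35 and 30 reads against 12 and 18. Its groups did not overlap, at a level where each value rests on few reads. In limma the log2 fold change was 1.05 ± 0.36 (95% interval 0.18 to 1.93, adjusted p = 0.219). Hoxc4 (chr15:103018934-103036852, plus strand) had 96.4 and 85.8 in Hoxb1Mu and 60.6 and 48.1 in WT. It was 1.68-fold higher in Hoxb1Mu (91.1 ± 7.46 against 54.3 ± 8.81, SD, n = 2 each), with a log2 fold change of 0.74 ± 0.23 (95% interval 0.19 to 1.29, adjusted p = 0.192). Hoxd4 (chr2:74711929-74729160, plus strand) had 58.4 and 53.8 in Hoxb1Mu and 43.6 and 22.1 in WT. The low WT 2 library set the size of the difference. The log2 fold change of 0.83 ± 0.37 (95% interval -0.08 to 1.74, adjusted p = 0.296) became 0.36 without WT 2 and 1.30 without WT 1. Hoxb4, the Hoxb gene of the group, had 201 and 167 in Hoxb1Mu and 197 and 178 in WT, with a log2 fold change of -0.03 ± 0.16.

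Hoxa5, of paralogue group 5, is needed for the trachea and lung and for the passage from neck to trunk. It had 57.4 and 84.9 normalised counts in Hoxb1Mu and 30.8 and 19.2 in WT (chr6:52201754-52204587, minus strand). This was the largest difference among the 8 tested genes, 2.84-fold, without overlap and with a wide spread in both groups (71.2 ± 19.4 in Hoxb1Mu and 25.02 ± 8.18 in WT). Its log2 fold change was 1.48 ± 0.35 (95% interval 0.62 to 2.34, adjusted p = 0.158). It passed the limma threshold in the fit without Hoxb1Mu 1, at 1.76 with an adjusted p of 0.0480, and over all alternatives its adjusted p lay between 0.0480 and 0.418. Hoxb5 had 87.2 and 77.3 in Hoxb1Mu and 71.2 and 88.5 in WT, which overlap. Hoxc5, the third gene of the group, had 42.0 and 37.7 in Hoxb1Mu and 24.4 and 27.9 in WT, without overlap (log2 fold change 0.59 ± 0.28, limma adjusted p = 0.324).

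Hoxa7, the remaining Hoxa gene, belongs to the trunk part of the cluster. It was not tested, because its mean of 9.04 normalised counts was under the minimum. It had 1 and 30 reads in Hoxb1Mu and 1 and 6 in WT (chr6:52214491-52221854, minus strand). Only Hoxb1Mu 2 had more than 6 reads of it, and the groups overlapped. Hoxb7 had 26.7 and 35.8 normalised counts in Hoxb1Mu and 30.8 and 35.6 in WT.

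Hoxd1 was the single tested gene of the 8 with a negative log2 fold change, and it belongs to paralogue group 1, that of Hoxb1. In mouse it is needed for the wiring of pain-sensing neurons. Hoxd1 (chr2:74762980-74765142, plus strand) had 70.8 and 154 normalised counts in Hoxb1Mu and 143 and 160 in WT. Hoxb1Mu 2 thus lay at about the WT level and Hoxb1Mu 1 far under it. The log2 fold change was -0.53 ± 0.36 (95% interval -1.41 to 0.35, adjusted p = 0.465), and it became 0.02 without Hoxb1Mu 1 and -1.09 without Hoxb1Mu 2. Hoxb1Mu 1 is the library with Y-linked RNA, and the part of that in this result was not tested.

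**Figure D2:**
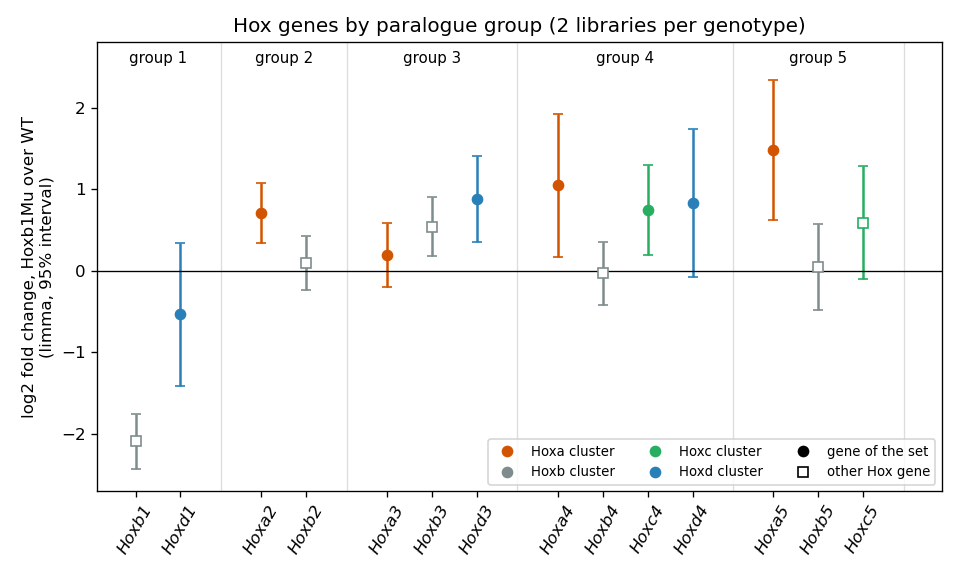
Log2 fold change of Hoxb1Mu over WT (y axis, limma) with its 95% interval for the tested Hox genes of paralogue groups 1 to 5, coloured by cluster. Filled circles are the Hoxa, Hoxc and Hoxd genes described here, open squares other Hox genes. Hoxb2, Hoxb4 and Hoxb5 have values between -0.03 and 0.10, and Hoxb3 has 0.54. Hoxa2, Hoxd3, Hoxa4, Hoxc4, Hoxd4 and Hoxa5 lie between 0.71 and 1.48 with intervals that, for Hoxd4, include 0. Hoxa3 (0.20) and Hoxd1 (-0.53) also have intervals that include 0.

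Levels were divided by exonic length (GENCODE vM21) for a rough comparison between genes, as the annotation used for counting is not known. Per exonic kilobase, Hoxa2 had 193 ± 30.6 normalised counts in Hoxb1Mu and 117 ± 5.03 in WT, the highest of the 9 genes in both groups. Hoxd3 followed in Hoxb1Mu with 75.7 ± 2.64 (41.8 ± 12.6 in WT), while in WT Hoxd1 came next to Hoxa2 with 81.4 ± 6.17 (60.3 ± 31.5 in Hoxb1Mu). The order of Hoxd3 and Hoxd1 in Hoxb1Mu lies within the spread of Hoxd1. In Hoxb1Mu the next were Hoxa5 with 37.9 ± 10.3 in Hoxb1Mu and 13.3 ± 4.36 in WT, and Hoxc4 with 35.5 ± 2.91 in Hoxb1Mu and 21.2 ± 3.43 in WT. Hoxa3 had 27.6 ± 1.51 in Hoxb1Mu and 24.1 ± 2.64 in WT, above Hoxc4 in WT but below it in Hoxb1Mu. Hoxa4 had 20.1 ± 3.37 in Hoxb1Mu and 9.43 ± 2.02 in WT, and Hoxd4 had 19.0 ± 1.12 in Hoxb1Mu and 11.1 ± 5.14 in WT. The ranges of mean ± SD of Hoxa5 and Hoxc4 overlapped in Hoxb1Mu, as did those of Hoxc4 and Hoxa3 in WT, and of Hoxa4 and Hoxd4 in both groups. Hoxa7 was the lowest at 5.10 ± 6.71 in Hoxb1Mu and 1.19 ± 1.16 in WT.

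Some of these exons overlap other annotated genes, which matters because the annotation and the strand setting used for counting are not known. Of the exonic bases of Hoxd3, 62.8% are shared with other genes, and of Hoxd4 52.3%. The 2 genes share 388 of these bases with each other. The share was 27.1% for Hoxa3, 20.4% for Hoxa7, 15.997% for Hoxa4 and 15.0% for Hoxa2, while Hoxa5, Hoxc4 and Hoxd1 shared none. For Hoxa4 and Hoxa7 the shared bases all lay with genes of the opposite strand. Values of the overlapping genes are uncertain to that extent.

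A ratio between paralogues in the same library does not depend on the size factor. Of 8 ratios between paralogues, 7 did not overlap between the genotypes, nor did a ninth ratio, of Hoxaas2 to Hoxa2. Among all pairs of the 15752 tested genes above 0 in every library, 51.7% had ratios that did not overlap in this way. An exact 2-sided permutation test of 2 against 2 libraries cannot go below p = 0.333, which each of the 8 ratios without overlap reached. Hoxa2 had 1.69 and 1.45 counts for each of Hoxb2 in Hoxb1Mu and 1.12 and 0.942 in WT. Hoxd3 had 1.89 and 1.94 for each of Hoxa3 in Hoxb1Mu and 0.884 and 1.59 in WT. The direction was the other way for Hoxa3 over Hoxb3, at 0.994 and 0.880 in Hoxb1Mu and 1.25 and 1.14 in WT. In both of these group 3 ratios Hoxa3 had the smaller share in Hoxb1Mu. They share Hoxa3, so they are not independent. For Hoxd3 over Hoxa3, WT 2 lay nearer to the Hoxb1Mu libraries than WT 1 did.

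Against Hoxb4, each group 4 gene took a larger share in Hoxb1Mu. The ratio of Hoxa4 to Hoxb4 was 0.179 and 0.169 in Hoxb1Mu and 0.0649 and 0.0973 in WT. The ratio of Hoxc4 to Hoxb4 was 0.480 and 0.514 in Hoxb1Mu and 0.308 and 0.270 in WT, and that of Hoxd4 to Hoxb4 was 0.291 and 0.322 in Hoxb1Mu and 0.222 and 0.124 in WT. These 3 ratios share Hoxb4, so they are not independent. Hoxa5 over Hoxb5 was 0.659 and 1.10 in Hoxb1Mu and 0.433 and 0.217 in WT. The ratio that overlapped was Hoxd3 over Hoxb3 (1.88 and 1.71 in Hoxb1Mu, 1.10 and 1.81 in WT), with an exact permutation p of 0.667.

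**Figure D3:**
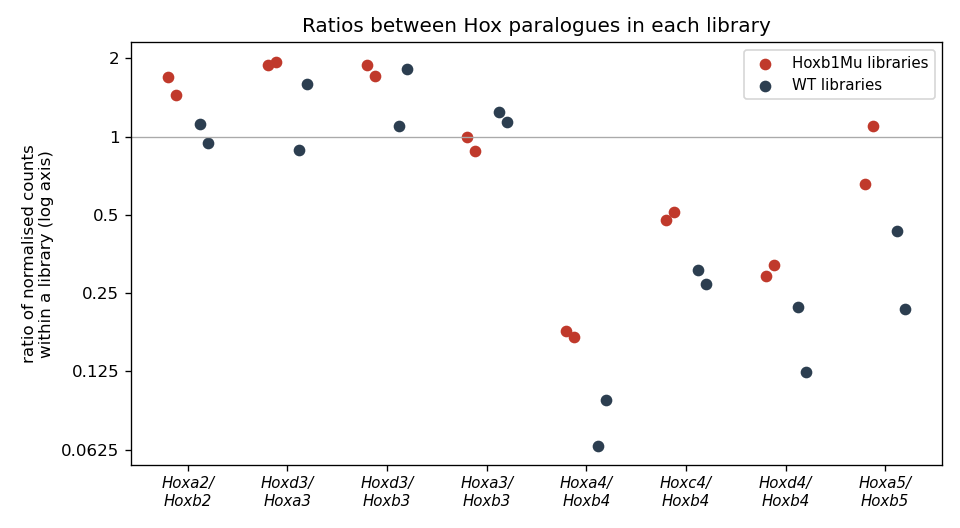
Ratio of normalised counts between paralogous Hox genes within a library (y axis, log scale), with the 2 Hoxb1Mu libraries (red) left of the 2 WT libraries (dark blue) for each pair. The red points lie above the dark ones for Hoxa2/Hoxb2, Hoxd3/Hoxa3, the 3 ratios over Hoxb4 and Hoxa5/Hoxb5, below them for Hoxa3/Hoxb3, and overlap them for Hoxd3/Hoxb3.

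The Hoxb cluster apart from Hoxb1 was read in the same way, although its genes belong in part to other paralogue groups. Hoxb6, Hoxb8 and Hoxb9 are of groups that have no gene among the 9 described here. In the shared groups, log2 fold changes were 0.10 for Hoxb2, 0.54 for Hoxb3, -0.03 for Hoxb4, 0.05 for Hoxb5 and -0.10 for Hoxb7. Of its 8 tested genes (Hoxb2 to Hoxb9), 4 lay above 0 and 4 below, with a median log2 fold change of 0.01. Summed, they had 925 and 938 normalised counts in Hoxb1Mu and 910 and 925 in WT. Hoxb3 (above) and Hoxb6 were the 2 with an unadjusted limma p under 0.05. Hoxb6 had 106 and 105 in Hoxb1Mu and 170 and 174 in WT, without overlap (log2 fold change -0.70 ± 0.15, limma adjusted p = 0.155, DESeq2 adjusted p = 0.164). DESeq2 gave 4 of the 8 an adjusted p and called 0. The difference between the clusters itself was not tested, since genes are not replicates of a genotype.

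Non-coding RNAs lie between the Hoxa genes and between the Hoxd genes, often on the opposite strand. Of 17 such RNAs looked for, 7 were listed, of which 5 lay above 0 and 2 below, with a median log2 fold change of 0.15. Hoxaas2, transcribed from the plus strand between Hoxa2 and Hoxa3 (chr6:52165674-52169564), had 331 and 303 normalised counts in Hoxb1Mu and 161 and 157 in WT. The log2 fold change was 0.99 ± 0.13 (limma adjusted p = 0.142, DESeq2 adjusted p = 0.00174), and its groups stood well apart. Hoxaas2 shares 503 exonic bases with Hoxa3, the gene beside it that differed little, and none with Hoxa2. Its ratio to Hoxa2 was 0.868 and 0.994 in Hoxb1Mu and 0.752 and 0.776 in WT. Hotairm1, at the 3′ end of the Hoxa cluster, had 153 and 141 in Hoxb1Mu and 106 and 165 in WT. Haglr, between Hoxd1 and Hoxd3, had 172 and 148 in Hoxb1Mu and 94.6 and 141 in WT, without overlap (log2 fold change 0.46 ± 0.23, limma adjusted p = 0.341).

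Among the other 20 genes of the 3 clusters, 16 were listed and 14 tested, with 11 above 0 and 3 below (median 0.76), and limma called 0 of them. DESeq2 gave 3 of the 14 an adjusted p and called 0. At an unadjusted limma p under 0.05 there was 1, Hoxd9. For many of the posterior genes a single library held most of the RNA. Hoxa9 had 24.6 and 200 normalised counts in Hoxb1Mu and 7.44 and 42.3 in WT, Hoxa13 had 1.03 and 40.6 in Hoxb1Mu and 2.12 and 0.962 in WT, and Hoxd13 had 4.10 and 48.1 in Hoxb1Mu and 6.37 and 1.92 in WT. Hoxc10 had 52.8 in Hoxb1Mu 2 and 0 in the other 3 libraries, as did Hoxc9 with 32.1. These 5 posterior genes were highest in Hoxb1Mu 2, which also held 144 of Cdx4, a tail bud gene, against 3.08 in Hoxb1Mu 1 and 1.06 and 1.92 in WT, and 905 of Tbx4, a hindlimb and allantois gene, against 17.4 in Hoxb1Mu 1 and 1.06 and 10.6 in WT. Hoxa10 and Hoxa11 instead were highest in WT 2, as was the sum of the 4 posterior Hoxa genes (367 and 465 in Hoxb1Mu, 150 and 620 in WT). Hoxa10 had 209 and 158 in Hoxb1Mu and 92.4 and 358 in WT, and Hoxa11 had 132 and 66.0 in Hoxb1Mu and 47.8 and 219 in WT. Of the 7 genes whose groups did not overlap, 6 had a lower normalised value in Hoxb1Mu 2 than in Hoxb1Mu 1, the exception being Hoxa5. In reads from Hoxb1Mu 1 and 2, Hoxa3 (168 and 169), Hoxd3 (317 and 328) and Hoxd4 (57 and 57) were not lower in Hoxb1Mu 2. Without Hoxb1Mu 2, 7 of the 8 tested genes lay above 0 as with all libraries, with a median log2 fold change of 0.88. The part of the posterior RNA of Hoxb1Mu 2 in these values was not tested.

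**Figure D4:**
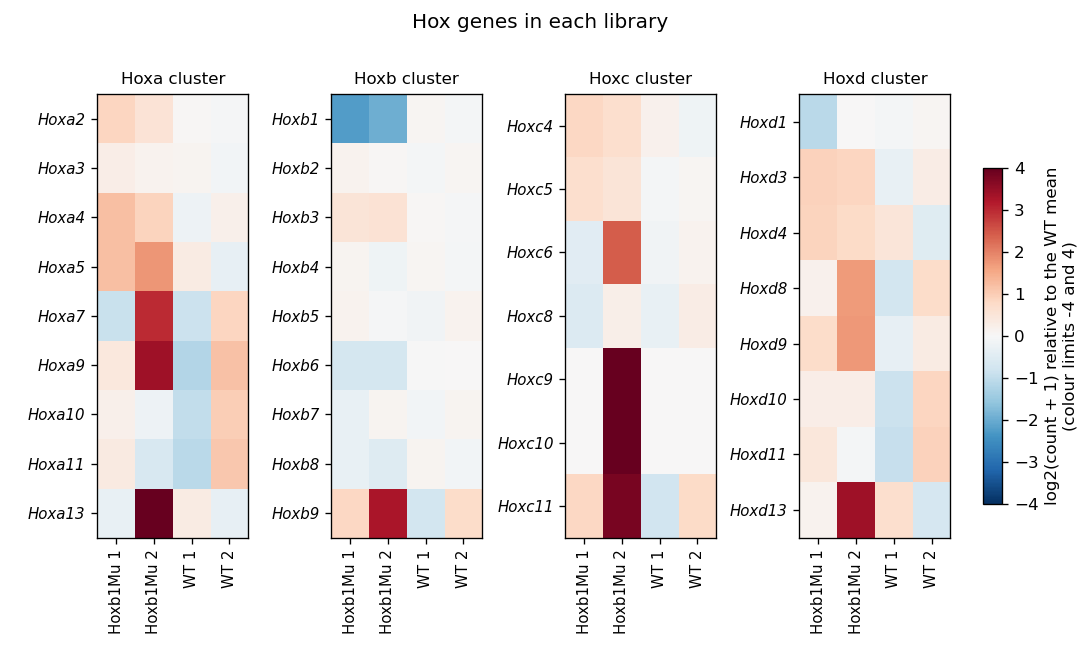
Level of Hox genes in each library, as log2(normalised count + 1) relative to the mean of the WT libraries (colour, limits -4 and 4), with genes from low to high group number down each cluster and Hoxb1Mu libraries left of WT libraries. Both Hoxb1Mu libraries are above both WT libraries for Hoxa2 to Hoxa5, Hoxb3, Hoxb9, Hoxc4, Hoxc5, Hoxc11, Hoxd3, Hoxd4 and Hoxd9. Hoxa7, Hoxa9, Hoxa13, Hoxb9, Hoxc6, Hoxc9 to Hoxc11 and Hoxd13 are dark in Hoxb1Mu 2 alone.

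PBX and MEIS proteins bind DNA together with HOX proteins and take part in their cross-regulation. Of their 9 genes, 6 lay above 0 and 3 below, with a median log2 fold change of 0.06, and 0 were called by limma or by DESeq2, which gave 8 of them an adjusted p (3 had an unadjusted limma p under 0.05, all higher). Among the abundant ones, Meis2 had 6156 and 6326 normalised counts in Hoxb1Mu and 5749 and 5582 in WT (log2 fold change 0.14 ± 0.05). Pbx4, the cofactor gene with the largest difference (0.59 ± 0.19), had 124 and 109 in Hoxb1Mu and 81.8 and 72.1 in WT.

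Of 18 genes that make, sense or remove retinoic acid, 10 lay above 0 and 8 below, with a median of 0.02, and DESeq2 called 3 of them higher and 0 lower. Cyp26b1, an enzyme that degrades retinoic acid, had 399 and 317 normalised counts in Hoxb1Mu and 164 and 137 in WT (log2 fold change 1.24 ± 0.17, limma adjusted p = 0.142, DESeq2 adjusted p = 1.41e-04). Cyp26c1, of the same enzyme family, had 2385 and 2662 in Hoxb1Mu and 1970 and 2005 in WT (DESeq2 adjusted p = 0.0112). Crabp1, a cytoplasmic binding protein abundant in hindbrain and neural crest, had 10348 and 8708 in Hoxb1Mu and 7694 and 6592 in WT (DESeq2 adjusted p = 0.00280). The genes called are thus removers or carriers of retinoic acid, and the main synthesising enzyme Aldh1a2, with 2963 and 2810 in Hoxb1Mu and 2943 and 2349 in WT, was not called.

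Of 9 Cdx and hindbrain regulators, 7 lay above 0 and 2 below, with a median of 0.20. Egr2, which activates Hoxa2 and Hoxb2 in rhombomeres, had 732 and 667 in Hoxb1Mu and 481 and 466 in WT (log2 fold change 0.56 ± 0.09, limma adjusted p = 0.151, DESeq2 adjusted p = 0.0112). Of 12 Polycomb and trithorax genes, 6 lay above 0 and 6 below, with a median of 0.00. DESeq2 called 1 of them, Kdm6a, whose product removes the Polycomb methyl mark, with 2540 and 2949 in Hoxb1Mu and 4000 and 3632 in WT (DESeq2 adjusted p = 3.07e-04). Kdm6a lies on the X chromosome, and Xist differed between these libraries in the same direction.

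Among tissues that carry these Hox genes, markers of neural crest, neural tube, hindbrain and somites were mostly higher in Hoxb1Mu as well. Of 12 neural crest markers, 11 lay above 0 at a median of 0.37 on the log2 scale and they summed to 11662 and 13219 normalised counts in Hoxb1Mu and 9302 and 9663 in WT. DESeq2 called 7 of them higher, with limma log2 fold changes that included 1.45 for Ngfr, 1.12 for Sox10, 1.06 for Tlx1, 0.94 for Tfap2b, 0.37 for Erbb3 and 0.34 for Ets1. Of 12 neural tube markers, 11 lay above 0 with a median of 0.37 and they summed to 12756 and 13396 in Hoxb1Mu and 11835 and 10917 in WT. The 4 that DESeq2 called, all higher, were Msx3 (log2 fold change 1.26), Zic1 (1.20), Pax3 (0.42) and Pax6 (0.41). For 9 rhombomere and hindbrain markers, 8 lay above 0 with a median of 0.28, and the sums were 14197 and 14950 in Hoxb1Mu and 13320 and 13277 in WT. Of the 8 listed somite markers of 12, 6 lay above 0 and 2 below, with a median of 0.23. In 5 of these 8 both Hoxb1Mu libraries lay above both WT libraries, against 26.4% of all tested genes. DESeq2 gave an adjusted p to 5 of the 8 and called 0. The somite sums were 4782 and 4938 in Hoxb1Mu and 4904 and 4073 in WT, which overlap. The presomitic markers Tbx6, Msgn1, Hes7 and Ripply2 were not listed. None of the neural, crest or hindbrain markers was at 0 in any library. Their part in the result was not tested.

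The 10 SHF markers gave a median log2 fold change of 0.03, with 6 above 0 and 4 below. Their sums were 8575 and 9810 in Hoxb1Mu and 9025 and 9259 in WT, and all 10 were present in every library. DESeq2 called 1 of the 10, Tbx1, which was higher (932 and 1071 in Hoxb1Mu, 678 and 734 in WT, DESeq2 adjusted p = 0.0135). At an unadjusted limma p under 0.05, 1 SHF marker was higher and 2 were lower. Yolk sac endoderm markers, in contrast, were lower in Hoxb1Mu for 12 of 12 listed, with sums of 94618 and 48110 in Hoxb1Mu and 147360 and 141293 in WT, with DESeq2 calling 0 of the 11 to which it gave an adjusted p and 11 having an unadjusted limma p under 0.05. Cardiomyocyte markers were higher for 12 of 12 (DESeq2 called 9), summing to 70234 and 82348 in Hoxb1Mu and 53307 and 52926 in WT. The part of these differences in the Hox values was not tested.

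The pattern across the 4 libraries was compared with that of all other tested genes, using the mean profile of Hoxa2, Hoxa3, Hoxc4, Hoxd1 and Hoxd3, whose means reached 50. The 5 nearest of 15739 genes were Gnaz, Ccdc114, Sfxn4, Erbb3 and Ckb, at distances of 0.0199 to 0.0365 in log2 units. Erbb3, a neural crest receptor, had 1266 and 1349 normalised counts in Hoxb1Mu and 1002 and 1026 in WT, and Gnaz had 213 and 228 in Hoxb1Mu and 167 and 171 in WT. With 4 libraries a close match is easily had, and nothing is read from it about shared function.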

How the data were processed

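RNA of the SHF region of E8.5 mouse embryos was sequenced in 2 Hoxb1Mu and 2 WT libraries, and all 4 were used, grouped by the genotype label. Per the labels, cDNA primed at random and at poly-A tails was amplified, and reads carry no molecular identifiers, so a read is not a separate molecule and counting error is a lower limit. Per the submitters' processing notes, bcl2fastq 2.17.1.14, STAR 2.5.2 on mm10, HTSeq, R 3.3.4 and DESeq2 were used. The study's methods also name RSEM with an Ensembl annotation and edgeR. Whether that annotation served the HTSeq counts, and with which strand setting, is not given in the sources used here.

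The deposited table gives a normalised signal for each gene and library, read counts that the authors had divided by size factors, and its mean. It also holds the authors' own comparison, as a log2 fold change column, a score column (the Wald statistic) and p-value columns that the authors deposited, none of which was used. Whole reads were recovered from the signal (100% of values within 0.001 of a read). Of the listed symbols, 13 had been turned into dates, and these genes were tested but not named.

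The main test was limma-trend (limma 3.58.1, R 4.3.3) on log2(value + 1), without covariates, over 15760 genes, after 43 with a mean under 10 were dropped. Fold changes on this scale understate the change of low genes. Adjusted p-values are Benjamini-Hochberg values over all tested genes, 2-sided, with a threshold of 0.05. DESeq2 1.42.0 and edgeR 4.0.16 (quasi-likelihood) on recovered reads, other pseudocounts and filters, scaling to equal totals and leaving out each library were the alternatives, and DESeq2 without each library was added after seeing the data. The tools were tested on simulated data. Positions and exonic lengths came from GENCODE vM21 on mm10 by symbol, promoter windows from RefSeq (GRCm38.p6). All 9 genes are named, with Hoxb1, the Hoxb paralogues, and from each context list the DESeq2 calls and at most 3 abundant genes. Single posterior genes, Tbx4, the Cdx genes, Pbx4, Aldh1a2, Hoxc5, Hoxb6, Hoxb9, Hoxaas3 and the sex-linked genes were added after their values were seen. The 9 genes and the lists were chosen with earlier results of these data known. A few genes of the context lists are counted but not reported here by name or plotted.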

Additional observations from a re-analysis of the deposited data

How the results depend on the processing

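The 8 tested genes had 117 log2 fold changes under 15 alternatives, all but 2 in the main direction. Of these, 93 also kept their side of the threshold and 19 had no DESeq2 adjusted p to compare. DESeq2 called Hoxa2 (0.72) and Hoxd3 (0.85), and Hoxa5 passed without Hoxb1Mu 1 (1.76). Hoxd1 changed sign without Hoxb1Mu 1, to 0.0227 in limma and 0.0218 in DESeq2, and was -1.09 without Hoxb1Mu 2. Over all genes, limma called 0 and DESeq2 called 556. Without 1 library, limma called 0 to 941 (941 when Hoxb1Mu 1 was left out, 37 for Hoxb1Mu 2 and 0 for either WT library). DESeq2 called 589 when Hoxb1Mu 1 was left out, 118 for Hoxb1Mu 2, 92 for WT 1 and 71 for WT 2, where the lone library of a genotype is assumed to vary like the other pair. The cause was not tested. A minimum mean of 50 left 5 of the genes, 4 of them above 0, because fewer were tested. The number above 0 lay between 7 and 8 and the median between 0.62 and 0.88 without 1 library. The mean was under 100 normalised counts in 5 of the 9 genes, where read counting limits the precision. No paired analysis was possible because the replicate numbers were given in accession order and name no shared litter or batch.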

Other observations

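Hoxaas3, an antisense RNA that spans the middle of the Hoxa cluster and overlaps exons of Hoxa3 and Hoxa7, had 29.7 and 49.99 normalised counts in Hoxb1Mu and 10.6 and 13.5 in WT, without overlap (log2 fold change 1.61 ± 0.40, limma adjusted p = 0.160, no DESeq2 adjusted p). Hoxb9 had 14.4 and 83.0 in Hoxb1Mu and 4.25 and 13.5 in WT, high in the library that also held the most Hoxa9, Hoxc9 and Hoxc10. Cdx2, a regulator of trunk and tail Hox genes, had 116 and 238 in Hoxb1Mu and 150 and 153 in WT, and Cdx1 had 105 and 158 in Hoxb1Mu and 138 and 136 in WT. Primitive red blood cell markers summed to 2608 and 886 in Hoxb1Mu and 495 and 15888 in WT, the last in WT 2, the library with the most Hoxa10 and Hoxa11.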
